A study of Mus musculus with 35 samples.

Results

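The regions described here are 3115 distal enhancer-type regions of WT mouse pre-B cells that carried H3K27ac and Ikaros and had no H3K27ac peak in cells with the Ikaros mutation. They were chosen by 3 readings of the deposited peak lists: a WT H3K27ac peak on chromosomes 1 to 19 or X more than 2500 bp from the nearest annotated transcription start site (TSS), sharing no base with any H3K27ac peak of the mutant cells, and sharing at least 1 bp with a WT Ikaros peak. They made up 13.8% of the 22569 distal WT H3K27ac peaks, 31.75% of the 9812 that had no mutant H3K27ac peak, and 9.34% of all 33342 WT H3K27ac peaks. H3K27ac and Ikaros therefore chose the regions, and their values below are a description only. Each chosen region is called a member.

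Ikaros, encoded by Ikzf1, is a zinc-finger transcription factor needed for lymphoid development, and in pre-B cells it works beside the B-lineage factors PAX5, EBF1, E2A and IRF4. Acetylation of histone H3 lysine 27 (H3K27ac) marks active enhancers and promoters, monomethylation and dimethylation of lysine 4 (H3K4me1, H3K4me2) mark enhancers whether active or poised, and trimethylation of lysine 27 (H3K27me3) marks chromatin repressed by Polycomb. Pre-B cells that pass the pre-B receptor checkpoint leave the stroma, stop dividing and rearrange the immunoglobulin kappa light chain locus, a step known to need Ikaros.

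The study profiled stromal-adherent pre-B cell progenitors by chromatin immunoprecipitation and sequencing. One group came from WT mice, whose labels name no Cre, and the other from mice labelled IKDN CD2 Cre. The labels do not spell out IKDN. As background, it is a dominant-negative Ikaros that lacks the DNA-binding zinc fingers, made in lymphoid cells by Cre under CD2 control. Cells of both genotypes were at passages 3 to 8 in culture. Of 35 libraries, 33 had a peak list, 16 from WT and 17 from IKDN, and the 2 inputs had none. There was 1 library per target and genotype, so no difference below has a replicate check or a test, and the 95% Clopper-Pearson intervals given in brackets cover counting error only. The lists held 2802 to 86703 peaks and carry no read depth. Lists that were incomplete were read only on their complete chromosomes: E2A of WT covered 11 chromosomes, ETS1 of WT lacked chromosome 2, and PAX5 of IKDN lacked chromosomes 9 and X. Mismatched antibody labels touch some pairs: WT and IKDN differ in the catalogue number for E2A, ETS1 and H3K4me3, and the IKDN H3K4me3 library carries the number given for H3K4me1. One number is also given for the PAX5 and IRF4 libraries of both genotypes and for IKDN E2A, and another for WT E2A, IKDN ETS1 and IKDN LHX2, so the targets are named here by the sample titles. Of 7 pre-B marker genes whose start was found, 7 had a WT and 6 an IKDN H3K4me3 peak at the start, the exception being Rag1. Of 4 T-cell markers 1 had one in WT (Lck) and 0 in IKDN, of 3 myeloid markers 1 (Lyz2) and 0, and of 3 stromal fibroblast markers 3 and 1.

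The bases of a few Ikaros peaks could be read, all in windows around gene starts, so they need not stand for the rest. A RefSeq table of 300-base windows around gene starts (GRCm38.p6, the mm10 assembly that the peak coordinates matched) held 6 of the 3540 Ikaros peaks of members whole, and the 4 shown were chosen from these 6 after their values were seen, for their contrast in what remained in IKDN. All are printed from the plus strand, with the Ikaros core GGGAA, or TTCCC on the other strand, in capitals. The first, annotated as promoter, lies in the Ipcef1 window at chr10:6980348-6980524. Its member has a deposited distance of -4.284 kb to the start but is wide enough to take in this promoter. The second lies in an intron of Slc6a19 at chr13:73692637-73692813. The third, at chr15:38602249-38602425, and the fourth, at chrX:95986732-95986908, are annotated as intergenic but lie in the windows of Gm41309 and Gm41897.
Ipcef1: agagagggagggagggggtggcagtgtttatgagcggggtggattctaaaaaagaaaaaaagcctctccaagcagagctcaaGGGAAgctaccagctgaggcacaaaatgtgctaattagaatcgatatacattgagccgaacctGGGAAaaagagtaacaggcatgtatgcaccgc
Slc6a19os: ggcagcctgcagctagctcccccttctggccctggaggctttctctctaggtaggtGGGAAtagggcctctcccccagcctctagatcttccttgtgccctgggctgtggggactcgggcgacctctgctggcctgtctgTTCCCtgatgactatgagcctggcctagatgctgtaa
2310043O21Rik: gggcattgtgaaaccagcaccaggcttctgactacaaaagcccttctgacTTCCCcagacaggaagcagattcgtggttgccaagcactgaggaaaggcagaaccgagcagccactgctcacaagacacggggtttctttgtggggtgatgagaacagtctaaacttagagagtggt
Las1l: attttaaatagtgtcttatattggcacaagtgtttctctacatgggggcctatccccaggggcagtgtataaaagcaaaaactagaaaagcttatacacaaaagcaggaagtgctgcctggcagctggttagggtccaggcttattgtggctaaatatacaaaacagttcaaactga
The Ipcef1 and Slc6a19os peaks held 2 cores each, the 2310043O21Rik peak held 1 and the Las1l peak held 0. Over all 6 peaks, 3 held a core (50%, 11.8 to 88.2). Of 105 Ikaros peaks in kept regions read the same way 69 did (65.7%, 55.8 to 74.7), and the core was in the first 177 bases of 44.9% of all 32583 windows of the table. The Ipcef1 member (H3K27ac peak score 591.4, with an Ikaros score of 7.5 for the peak shown) had WT peaks of H3K4me1, H3K4me2, H3K4me3, RNAPII, MED1, EBF1, PAX5, E2A, IRF4, ETS1 and TEAD1, and in IKDN peaks of H3K4me1, H3K4me2 and LHX2. The Slc6a19os member (205.7 and 10.6) had WT H3K4me1, H3K4me2, MED1, PAX5, E2A and IRF4 and no peak of any IKDN list. The 2310043O21Rik member (67.4 and 6.11) had H3K4me1, H3K4me2, PAX5, IRF4 and ETS1 in both genotypes, H3K4me3 in WT alone, and LHX2 and LMO2 in IKDN. The Las1l member (53.9 and 3.89) had WT H3K4me1, H3K4me2, H3K27me3 and PAX5 and no peak in IKDN, where PAX5 could not be read on X. The same core was thus present at a member with no IKDN peak and at one whose factors had peaks in both genotypes.

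Members were mid-sized and mostly far from gene starts. Peak score is the authors' own value per peak, and ranks peaks only within a list. Among members the median width was 1477 bp (500 to 20991), the median H3K27ac score 28.1 (4.76 to 2118) and the median Ikaros score 6.95 (2.78 to 110.3). The 8271 distal regions with Ikaros that kept H3K27ac, called kept Ikaros regions here, were wider and higher scored, with medians of 2477 bp, 76.1 and 10.8. The 6697 that had no IKDN H3K27ac peak and no Ikaros were narrow and low, at 500 bp and 7.53. A wider region can meet more peaks, and the shares below were not compared between classes at equal width. Most members held 1 Ikaros peak (87.6%), while 11.4% held 2 and 30 held 3 or more. Their median distance from a TSS was 35651 bp, 83.5% lay beyond 10 kb and 39.5% beyond 50 kb. By the deposited annotation 57.1% were intergenic and 39.2% intronic. The nearest IKDN H3K27ac peak was a median of 15480 bp away, and for 25% there was none within 50 kb. A CpG island lay at the centre of 0.738% of members against 2.88% of kept Ikaros regions and 0.627% of the 6697. LTR repeats lay at the centre of 10.5% of the Ikaros peaks in members and 6.56% of those in kept Ikaros regions, and LINE repeats at 7.03% and 3.74%. By the centre of the region, LTR repeats were at 8.54% of members, 6.43% of kept Ikaros regions and 9.32% of the 6697.

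Ikaros-bound regions were a minority of what had no mutant H3K27ac. Over all distal WT peaks, 43.5% had no IKDN H3K27ac peak, 27.4% (26.5 to 28.2) of those with Ikaros and 59.9% (59.0 to 60.8) of those without. This order held in each quartile of WT H3K27ac score: in the lowest quartile 60.4% with Ikaros against 72.7% without, then 44.7% against 57.0%, 32.0% against 39.5%, and 13.8% against 23.6% in the highest. By chromosome, members were the largest share of distal peaks on X (100 of 475, 21.1%) and 6 (239 of 1320, 18.1%), the latter carrying the kappa locus, and the smallest on 11 (10.4%).

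The choice had sharp edges. The members nearest to the distance limit were by Gbp4, Apoc4 and Bglap3 (2517, 2520 and 2526 bp), and regions by Bivm, Cd2 and Prrc1 (2471, 2453 and 2407 bp) fell just outside. A member by Sptbn1 lay 21 bp and one by Pcca 27 bp from an IKDN peak, while regions by Mir669c and Bcor shared 6 and 24 bp with one and were left out. Members by Aox4 and Eya2 shared 1 bp with their Ikaros peak, and regions by Zfp462 and Brd7 missed it by 1 bp. In 241 members less than 50% of the Ikaros peak lay inside, and 703 regions called unbound had an Ikaros peak within 1000 bp.

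Members carried the methyl marks of enhancers in WT and kept them unevenly in IKDN. In WT 91.9% (90.9 to 92.8) had an H3K4me1 peak and 87.2% (86.0 to 88.4) an H3K4me2 peak. In IKDN the shares were 55.2% (53.4 to 56.9) and 38.8% (37.0 to 40.5). In kept Ikaros regions they were 96.6% in WT and 95.7% in IKDN for H3K4me1, and 96.8% and 94.0% for H3K4me2. H3K4me3, typical of promoters, was at 13.2% of members in WT and 4.08% in IKDN, with differing antibodies. Of 410 members with the WT peak 117 retained it (28.5%, 24.2 to 33.2), against 68.9% over all distal regions. Of 2862 members with a WT H3K4me1 peak 1661 also had one in IKDN (58.0%, 56.2 to 59.9), against 79.1% of all distal regions with that mark in WT. For H3K4me2 1175 of 2716 did (43.3%, 41.4 to 45.2), against 76.0% over all distal regions. The regions with neither IKDN H3K27ac nor Ikaros retained 42.25% (40.5 to 44.0) of H3K4me1 and 34.75% (32.8 to 36.75) of H3K4me2, below the members. For H3K4me3 they retained 47.1% (42.4 to 51.7), above the members. Among members the share of WT H3K4me1 peaks retained hardly varied with acetylation: 55.1, 57.9, 59.5 and 57.1% from the lowest to the highest quartile of WT H3K27ac score. It was higher where Ikaros scored higher, at 50.7% (47.5 to 53.8) in the lowest tercile of Ikaros scores, 59.3% (55.9 to 62.6) in the middle and 64.4% (61.3 to 67.3) in the highest. It was lowest in isolated members: 68.4% (65.8 to 71.0) of those within 12.5 kb of an IKDN H3K27ac peak retained H3K4me1, and 37.7% (34.1 to 41.4) of the 779 with none within 50 kb. In the same 2 sets RNAPII was retained at 22.7% (18.8 to 26.9) and 6.20% (3.59 to 9.88), and IKDN H3K27me3 was at 4.77% (3.71 to 6.03) and 14.1% (11.8 to 16.8).

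**Figure D1:**
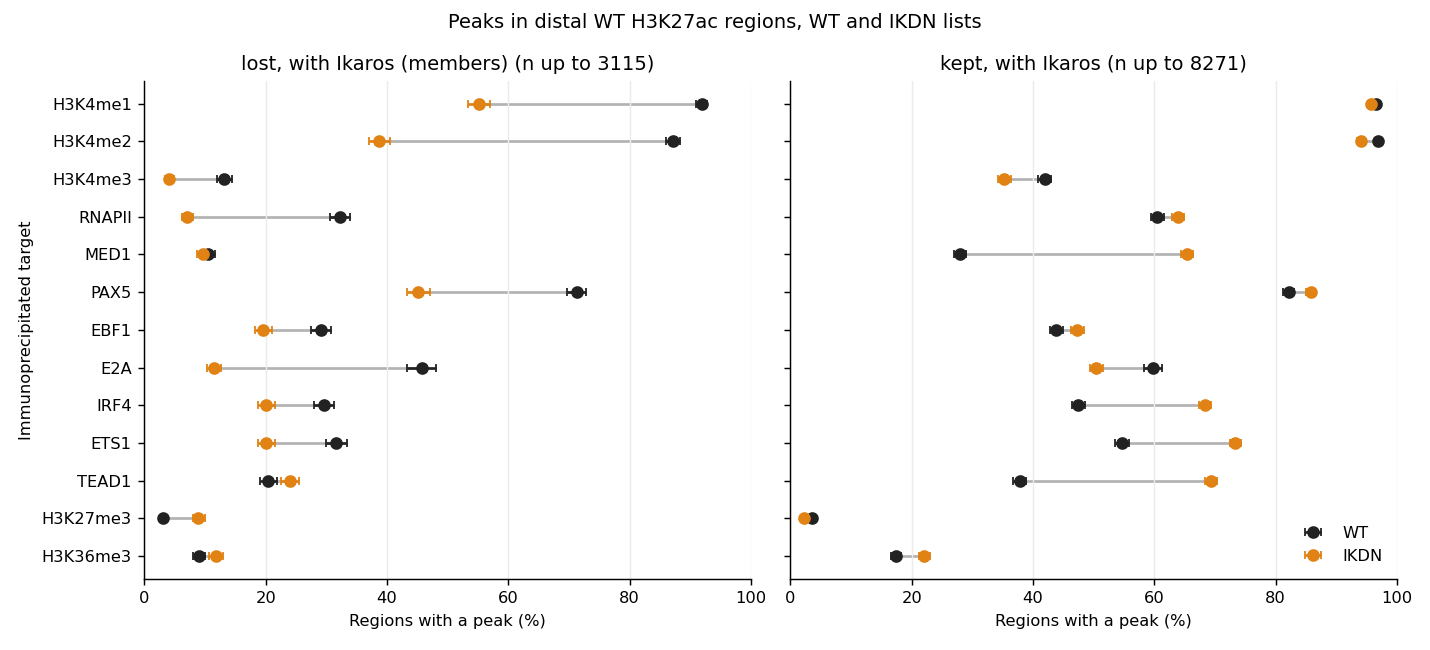
Share of regions with a peak of each target (x axis, percent) in WT (black) and IKDN (orange), for members (left, up to 3115) and kept Ikaros regions (right, up to 8271); each list is read on its complete chromosomes and bars are 95% intervals of the count. At members H3K4me1 stood at 91.9% and 55.2% and RNAPII at 32.2% and 7.00%, while MED1 at kept Ikaros regions stood at 28.0% and 65.4%.

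RNA polymerase II peaks of members were mostly absent in IKDN. The antibody is labelled for the polymerase phosphorylated at serine 5 of its tail, the form found at starts and active enhancers. It had a peak at 32.2% (30.6 to 33.9) of members in WT and 7.00% (6.13 to 7.95) in IKDN, and at 60.5% and 64.0% of kept Ikaros regions. Of 1003 members with WT RNAPII 155 had it in IKDN (15.5%, 13.3 to 17.8). Over all distal regions 36.3% of WT RNAPII peaks had no IKDN peak. The share retained was 40.2% in regions without Ikaros that also had no IKDN H3K27ac, and 78.5% in kept Ikaros regions. Among members it was 24.3% in the lowest quartile of H3K27ac score and 12.2% in the highest, although polymerase was most common there in WT (60.5% of 719). MED1, a Mediator subunit that bridges enhancers and polymerase, was at 10.5% of members in WT and 9.70% in IKDN, but mostly at different ones. Of 326 members with the WT peak 77 retained it (23.6%, 19.1 to 28.6), against 78.0% over all distal regions. Another 225 members had it only in IKDN. The IKDN MED1 list was the longer, 24239 peaks against 12105, and MED1 at kept Ikaros regions stood at 28.0% and 65.4%.

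The share of WT factor peaks that members retained differed from factor to factor, with shares in both genotypes read on the same chromosomes. PAX5, the factor that commits cells to the B lineage, was at 71.0% of members in WT and 45.2% in IKDN. Of 2043 members with WT PAX5 1196 had it in IKDN (58.5%, 56.4 to 60.7), against 81.8% over all distal regions. Among the top-scored 50% of each list it retained 40.6%, beside 42.6% for IRF4 and 55.0% for EBF1. EBF1, which opens B-lineage chromatin, was at 29.1% and 19.6%, with 556 of 906 retained (61.4%, 58.1 to 64.6), against 82.4% over all distal regions. IRF4, which acts with Ikaros at light chain genes, was at 29.6% and 20.1%, with 411 of 923 retained (44.5%, 41.3 to 47.8), against 78.3% over all distal regions. ETS1, an ETS-family factor of lymphocytes, was at 31.6% and 20.2%, with 386 of 913 retained (42.3%, 39.1 to 45.6), against 79.1% over all distal regions. E2A, the partner of EBF1 encoded by Tcf3, was at 45.7% in WT and 11.9% in IKDN, with 178 of 771 retained (23.1%, 20.2 to 26.2), against 58.0% over all distal regions. The E2A and ETS1 antibodies differed between genotypes by their labels, and genotype and antibody cannot be told apart there. Every one of these 5 shares was below that of kept Ikaros regions, which retained 72.8% of E2A, 88.9% of IRF4, 90.1% of EBF1, 90.6% of ETS1 and 94.1% of PAX5 peaks. Lost regions without Ikaros, the 6697 above, were nearer: they retained 11.5% of E2A (7.43 to 16.8), 30.8% of ETS1 (24.99 to 37.1), 47.3% of IRF4 (40.5 to 54.1), 50.9% of PAX5 (47.5 to 54.2) and 53.3% of EBF1 (47.9 to 58.7), above the members for IRF4 and below them for the other 4.

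**Figure D2:**
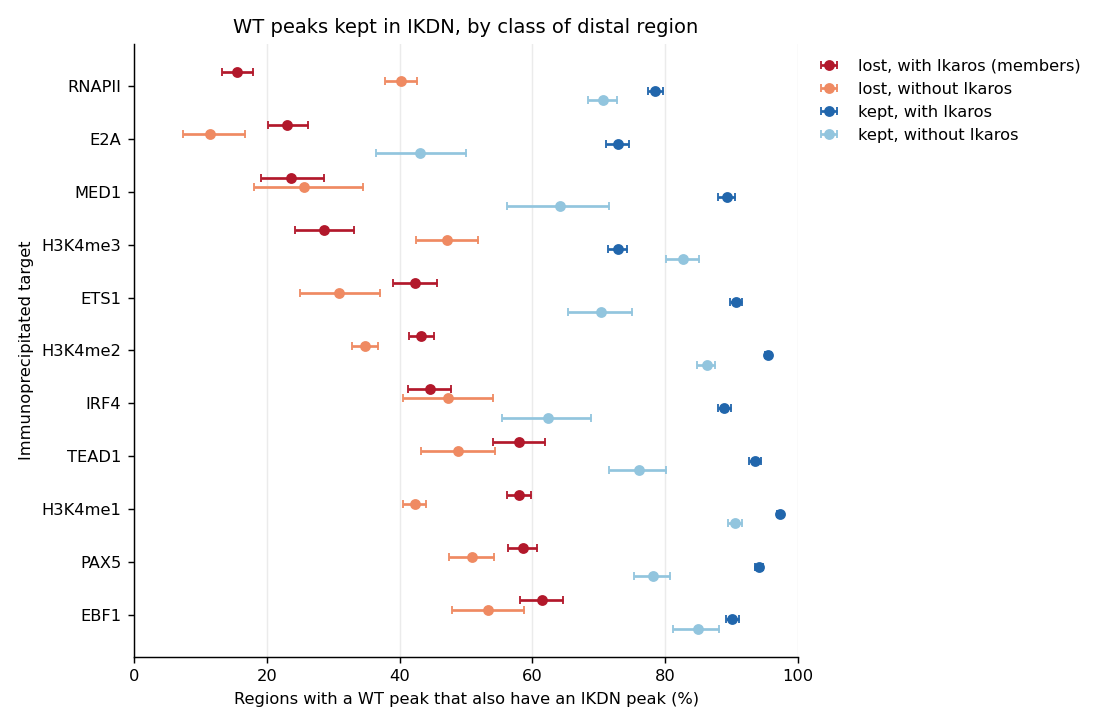
Percent of regions with a WT peak of each target that also had an IKDN peak of it, in the 4 classes of distal region; bars are 95% intervals of the count. Members (dark red) lay at 15.5% for RNAPII and 61.4% for EBF1, below kept Ikaros regions (dark blue) for all 11 targets drawn.

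Members carried fewer B-lineage factors each in IKDN. On the 11 chromosomes complete in every list, 1687 members carried a mean of 2.07 of the 5 factors EBF1, PAX5, E2A, IRF4 and ETS1 in WT and 1.17 in IKDN, while kept Ikaros regions went from 2.90 to 3.26. With E2A and ETS1, whose antibody numbers differ, left out, the mean of the remaining 3 was 1.28 and 0.836 at members and 1.75 and 2.02 at kept Ikaros regions, and 706 members had fewer (41.9%, 39.5 to 44.3), against 14.2% of all distal regions. Of these members 972 had fewer factors in IKDN (57.6%, 55.2 to 59.99), against 21.7% of all distal regions, 531 had the same number and 184 had more. Among the 607 with 3 or more factors in WT, 147 had 0 in IKDN (24.2%, 20.9 to 27.8), whereas in kept Ikaros regions 22 of 2626 did (0.838%). In lost regions without Ikaros 19 of 59 did (32.2%, 20.6 to 45.6). EBF1 and PAX5 lay together at 23.0% of members in WT and 11.7% in IKDN, and neither was present at 22.4% and 46.8%.

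Some members had no peak in IKDN and others had several. The count here takes any of the 10 IKDN factor lists, LHX2 and LMO2 among them, so a factor peak need not be one present in WT. On chromosomes complete for PAX5, 1496 of 2878 members (52.0%) had both a factor peak and H3K4me1 or H3K4me2 in IKDN, 465 (16.2%) a factor only, 243 (8.44%) the methyl mark only, and 674 (23.4%) neither. Neither was found at 0.401% of kept Ikaros regions, at 60.3% of lost regions without Ikaros and at 16.02% of kept regions without Ikaros. Members that lacked their WT factor peaks in IKDN included a region by Mir6901, in an intron at chr1:93264678-93269496, with an H3K27ac score of 285.8 and an Ikaros score of 53.6. It had all 8 WT factors in the count (MED1, EBF1, PAX5, E2A, IRF4, ETS1, TEAD1 and Aiolos), and in IKDN only H3K27me3 and RNAPII. An intronic region of Tmeff2 at chr1:51104216-51107923 (222.8 and 27.5) had 6 of the 8 in WT and no peak of any IKDN list. The same was true of a region at chr13:31789494-31791217 (29.7 and 13.9), 16.29 kb from Foxc1, of one in the heavy chain locus at chr12:115143659-115147280 (77.3 and 17.5), and of one far from 4930474G06Rik on chromosome 18 (399.1 and 30.8). In all, 265 members had 5 or more of the 8 factors in WT and 30 of these had no factor peak of 10 IKDN lists, while 1021 of the 3115 members had none of those 10 (none of 9 on chromosomes 9 and X, where PAX5 was not read). WT E2A and ETS1 counted as absent on the chromosomes where they were not read, so 265 is a lower bound. These counts were not made for the other classes, so they have no background share.

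The IKDN-only profiles read LHX2, a LIM-homeodomain factor, and LMO2, a LIM-only adaptor of early blood progenitors, for which there is no WT list. LHX2 was at 20.6% (19.2 to 22.1) and LMO2 at 15.4% (14.2 to 16.8) of members, against 63.0% and 55.6% of kept Ikaros regions. TEAD1, the DNA-binding partner of YAP, was at 20.4% of members in WT and 24.0% in IKDN, and at 37.8% and 69.4% of kept Ikaros regions. Of 635 members with WT TEAD1 368 retained it (58.0%, 54.0 to 61.8), against 83.7% over all distal regions. Its IKDN list was longer, at 47764 peaks against 33532. At 60.5% of members none of LHX2, LMO2 and TEAD1 had an IKDN peak, against 14.3% of kept Ikaros regions, 89.9% of lost regions without Ikaros and 64.4% of kept regions without Ikaros. These classes differ in width, and equal widths were not tested. Where members had one of these peaks, WT H3K4me1 was more often retained: 90.5% (87.5 to 93.0) with LMO2 and 51.6% (49.6 to 53.6) without, and 87.4% (84.5 to 89.9) with LHX2 and 49.98% (47.9 to 52.1) without. MED1 in IKDN gave 90.04% and 54.7%. Higher retention was not particular to these peaks: IKDN PAX5 gave 77.9% and 40.7%, IRF4 83.7% and 51.2%, and EBF1 77.3% and 53.0%. TEAD1 gave 80.3% and 50.9%, and RNAPII 71.1% and 57.1%, while H3K27me3 went the other way, at 52.8% and 58.5%.

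Polycomb marked a minority of members in IKDN. H3K27me3 had a peak at 3.05% (2.47 to 3.72) in WT and 8.89% (7.92 to 9.95) in IKDN, while kept Ikaros regions had 3.56% and 2.30%. Of the 3020 members without WT H3K27me3, 218 had it in IKDN (7.22%, 6.32 to 8.20), against 2.47% of all such distal regions. It was more frequent at the members with the highest WT H3K27ac scores, where IKDN H3K27me3 stood at 13.9% (11.5 to 16.7) in the highest quartile and 5.52% (3.53 to 8.16) in the lowest. H3K4me1 or H3K4me2 without H3K27me3 was the state of 92.1% of members in WT and 55.4% in IKDN, and 35.7% had none of these 3 marks in IKDN. The 113 with H3K27me3 alone made up 3.63%. H3K36me3, laid down over transcribed gene bodies, was at 8.93% of members in WT and 11.8% in IKDN. Of members with the WT peak 74.1% (68.5 to 79.2) retained it, against 84.4% over all distal regions. Aiolos, the Ikaros relative encoded by Ikzf3, was rare at members, at 2.25% in WT and 0.514% in IKDN, with 6 of 70 retained (8.57%, 3.21 to 17.7), against a background of 75.8% without. Its WT list was short, at 3514 peaks.

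Peaks that appeared only in IKDN were, for 12 of 14 targets, rarer at members than over all distal regions, which include the kept ones, and for most targets more frequent at members than at lost regions without Ikaros. Among regions without the WT peak, RNAPII was present in IKDN at 2.98% of members against 19.9% of all distal regions, MED1 at 8.07% against 24.6%, and TEAD1 at 15.3% against 23.4%. For the B-lineage factors it was 9.81% against 18.4% for IRF4, 10.02% against 18.6% for ETS1, 12.5% against 15.4% for PAX5, 2.51% against 6.39% for E2A and 2.40% against 6.15% for EBF1. Among marks it was 8.02% against 12.3% for H3K4me2, 0.370% against 3.35% for H3K4me3 and 5.68% against 9.42% for H3K36me3, while Aiolos was at 0.328% against 1.57%. H3K4me1 stood near its background, at 22.9% against 19.5%. H3K27me3, given above, exceeded it. In lost regions without Ikaros the same shares were 9.88% for H3K4me1, 3.27% for H3K4me2, 4.10% for TEAD1, 3.90% for PAX5, 2.25% for MED1, 2.16% for ETS1, 1.84% for IRF4, 1.34% for EBF1, 0.955% for E2A and 2.80% for H3K27me3, each below the members. They were 5.53% for RNAPII, 10.01% for H3K36me3 and 0.529% for H3K4me3, above the members, and 0.300% for Aiolos, close to them. Members were the wider class, with a median of 1477 bp against 500 bp, and equal widths were not tested.

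The kappa light chain locus held the densest group of members. Antigen receptor loci held 196 members, 6.29% of the total, against 1.03% of kept Ikaros regions and 2.75% of regions with neither Ikaros nor IKDN H3K27ac. Over all distal WT peaks the share in these loci was 2.16%. Igk (chr6:67555636-70726754) held 105 of the members, out of 188 distal WT H3K27ac peaks. The heavy chain locus Igh had 46 of 174 and the T-cell receptor locus Tra/Trd 31 of 89. Igl and Trb had 5 each and Trg 4. Absence of IKDN H3K27ac in Igk was not limited to regions with Ikaros. Of the 188 Igk peaks, 168 had no IKDN H3K27ac peak (89.4%), 105 with Ikaros and 63 without. Those kept were 19 with Ikaros and 1 without. The share without IKDN H3K27ac was 67.2% in Igh and 79.8% in Tra/Trd. The deposited nearest genes there were not receptor segments. The names with the most members of all, Rprl1 (61), Rpia (23) and 4930515G16Rik (22), were given to members in Igk, though not every member so named lay inside it. By RefSeq coordinates 67 of the 105 Igk members overlapped a variable (V) segment.

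At Igk members most WT readouts had fewer peaks in IKDN. H3K4me1 peaks were at 98 of 105 members in WT and 21 in IKDN, and 20 of the 98 were retained (20.4%, 12.9 to 29.7), against 59.6% (57.8 to 61.5) of members outside all receptor loci. RNAPII was at 30 and 0, PAX5 at 84 and 24, IRF4 at 69 and 16, and MED1 at 32 and 5. EBF1 differed less, at 67 in WT and 42 in IKDN, all 42 of them retained. H3K27me3 went from 1 member to 13. Across the whole locus the WT and IKDN lists held 230 and 53 H3K4me1 peaks, 70 and 12 RNAPII peaks, 254 and 143 PAX5 peaks, 130 and 80 EBF1 peaks and 51 and 190 H3K27me3 peaks. Of the 190, 125 lay in the fourth of 4 equal stretches of the locus, where WT had 10. Of 102 functional V segments, 72 had PAX5 within 1 kb in WT and 16 in IKDN, 51 and 13 had IRF4, 51 and 43 had EBF1, and 2 and 23 had H3K27me3.

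**Figure D3:**
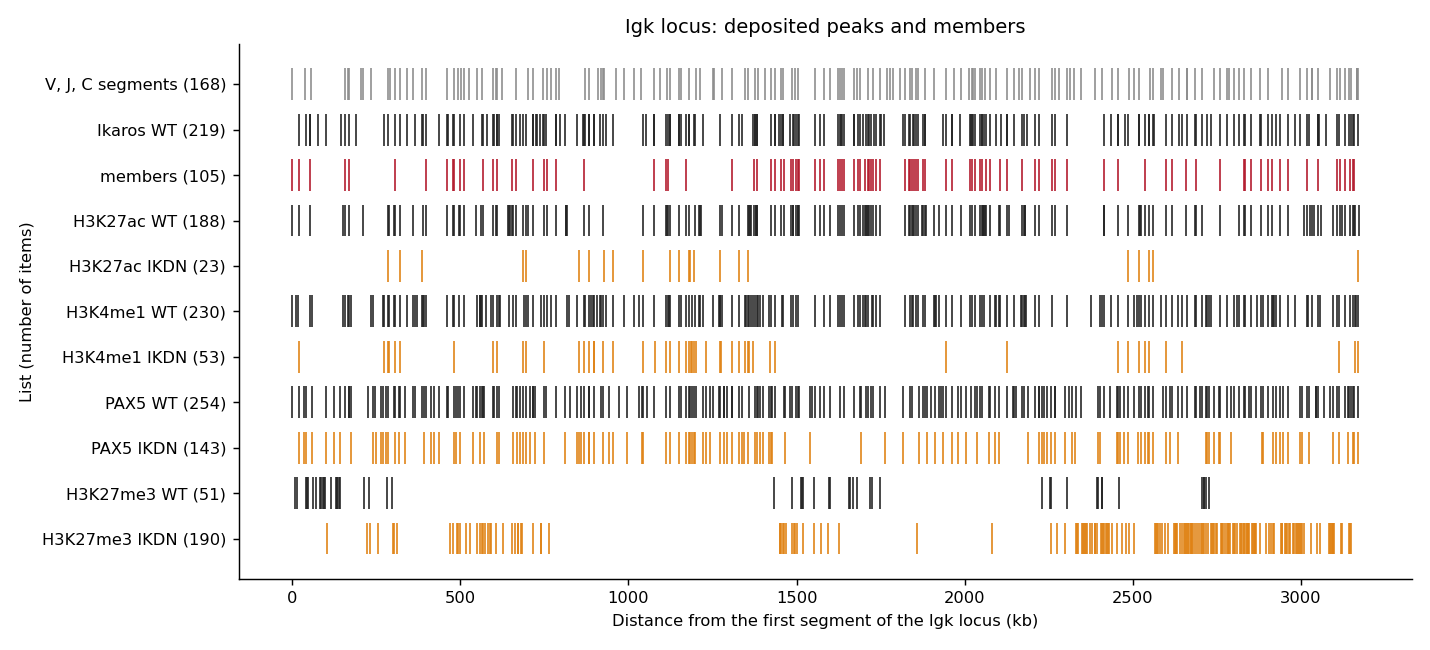
Positions of segments, members and peaks along the Igk locus, in kb from its first segment; each tick is the middle of 1 item, black for WT and orange for IKDN, with the number of items in each row. WT H3K27ac has 188 ticks and IKDN 23, and 125 of the 190 IKDN H3K27me3 ticks stand in the fourth of 4 equal stretches.

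Fewer members lay in the heavy chain and T-cell receptor loci. At the 46 Igh members H3K4me1 was retained at 23 of 40 (57.5%, 40.9 to 73.0), RNAPII at 2 of 25, PAX5 at 12 of 42 and IRF4 at 3 of 26, and 3 had IKDN H3K27me3 against 0 in WT. At the 31 Tra/Trd members H3K4me1 was retained at 9 of 28 (32.1%, 15.9 to 52.4), and H3K27me3 stood at 4 in WT and 15 in IKDN. The 4 members with the highest H3K27ac scores of all were Tra/Trd regions. The first 3, at chr14:53258200-53273711, chr14:52947162-52962524 and chr14:53640131-53655404, were 15.51, 15.36 and 15.27 kb wide, scored 2118, 2104 and 1914, held 4 Ikaros peaks each and had the same set of WT peaks. Whether these are copies of 1 repeated sequence that share reads was not tested. The fourth, at chr14:53552566-53563940, scored 1771 with an Ikaros score of 100.3, and had H3K27me3 in IKDN beside most of its factors.

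The highest Ikaros scores also clustered. Of the 10 members with the highest, 6 lay within 1 stretch of chromosome 8, from 19679984 to 20566176, by 4930467E23Rik (110.3), 6820431F20Rik (108.6 and 107), Gm21119 (107.5 and 84.5) and 2610005L07Rik (93.6). The 2 by Gm21119 lay 49.16 and 49.12 kb from a listed start, and the second by 6820431F20Rik and the one by 2610005L07Rik lay 12.54 and 12.71 kb from theirs. Whether these pairs are gene copies that share reads was not tested. All 6 had RNAPII and PAX5 in WT, and none of the 6 had any peak in IKDN. The other 4 were the Tra/Trd region above, one by the class II pseudogene H2-Ea-ps (63.4), one in Igk (59.7) and one by Mir6957 (58.6), and these kept H3K4me1, with 4 to 9 factors, in IKDN.

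Outside receptor loci the highest H3K27ac scores belonged to members by Zkscan16 (1052, chr4:58933568-58945742), Igj (988.5, chr5:88528905-88539197), Enthd1 (957.2, chr15:80528593-80541942), Prrc1 (879.5) and Ccnd3 (866.9, chr17:47546058-47560488). Igj encodes the J chain that joins IgM and IgA subunits. Its member had H3K4me1, H3K4me2, RNAPII, MED1, EBF1, PAX5 and IRF4 in WT, and H3K4me1, RNAPII, EBF1, E2A, ETS1, TEAD1 and LHX2 in IKDN, the WT E2A list being incomplete there. Ccnd3 encodes cyclin D3, which drives pre-B cell division. Its member, 14.43 kb wide and intronic, lacked its WT RNAPII, E2A, IRF4 and ETS1 peaks in IKDN and kept H3K4me1, H3K4me2, MED1, EBF1, PAX5 and TEAD1. An IKDN H3K27ac peak lay 2.18 kb from it. RNAPII peaks covered 88.87 kb of the Ccnd3 gene and its flanks in WT and 21.54 kb in IKDN.

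Among genes, Lrrn3 was nearest to the most members outside receptor loci, with 9, followed by Immp2l, Rapgef2 and Pik3r1 with 8 each and Bank1 and Cxcr4 with 7 each. Lrrn3, a leucine-rich repeat neuronal protein gene, lies inside Immp2l in RefSeq, so their members are neighbours. WT H3K4me1 was at 8 of the 9 Lrrn3 members and 8 of 8 by Immp2l, and IKDN H3K4me1 at 3 and 2. RNAPII covered 35.46 kb of Lrrn3 and flanks in WT and 0.681 kb in IKDN, and 44.49 kb and 2.425 kb of Immp2l. The Rapgef2 members were spread from 32.46 kb to 1022 kb from a gene for a Rap1 exchange factor. They had H3K4me1 at 7 in WT and 1 in IKDN, and H3K4me2 at 8 and 1, and 5 of the 8 lay over 200 kb from any IKDN H3K27ac peak. Those of Pik3r1, which encodes the p85 regulatory subunit of PI3 kinase, had H3K4me1 at 8 and 5 and PAX5 at 5 and 5.

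Of the 32 genes on a B-lineage identity list 15 (46.9%, 29.1 to 65.3) were nearest to at least 1 member, against 8.14% of 21631 protein-coding genes. The same list also had kept Ikaros regions at 21 of its 32 genes, against 3867 of the 21631, and members were 28.2% of its distal H3K27ac peaks with Ikaros, against 26.0% over all genes. The list and the 9 below were chosen with earlier results of these data known, so the counts are a description. Bank1, a B-cell scaffold that links the receptor to kinases, had H3K4me1 at 7 of its 7 members in both genotypes, H3K4me2 at 7 in WT and 6 in IKDN and PAX5 at 6 and 6, but RNAPII at 3 and 0. In the member with the highest H3K27ac score, at chr3:136299750-136303440 (132.4 and 22), MED1, EBF1, PAX5, ETS1 and TEAD1 were present in both genotypes. The 2 members in introns of Blk, a Src-family kinase of the B-cell receptor, were the opposite. The larger, at chr14:63374109-63383347 (296.5 and 15.6), had H3K4me1, H3K4me2, RNAPII, EBF1, PAX5, E2A, IRF4 and ETS1 in WT and H3K27me3, EBF1 and PAX5 in IKDN. Across Blk and its flanks RNAPII covered 23.22 kb in WT and 0 in IKDN, H3K36me3 24.57 kb and 0, and H3K27me3 7.184 kb and 36.43 kb.

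Irf4, whose product drives light chain rearrangement, had 4 members, with H3K4me1 at 4 in WT and 1 in IKDN and RNAPII at 3 and 1, but 5 kept Ikaros regions, and RNAPII over the gene covered 24.42 kb and 20.77 kb. Ebf1 had 2 members. The one at chr11:44573410-44581486 (321.8 and 18.6), 40.65 kb upstream, had WT peaks of H3K4me1, H3K4me2, H3K4me3, RNAPII, MED1, TEAD1 and all 5 B-lineage factors counted above, and H3K4me1, H3K4me2, EBF1, PAX5 and TEAD1 in IKDN. Pou2af1, the B-cell coactivator OCA-B, had 2, with H3K4me1 at 2 and 2 and RNAPII at 1 and 0. Bcl11a, a zinc-finger factor of lymphoid progenitors, had 3 members, in which H3K4me1 (2), H3K4me2 (2) and IRF4 (2) were equal in number in both. The single members of Tcf3 (E2A itself), Bach2, Blnk and Lef1 kept H3K4me1 and H3K4me2, and those of Pou2f2, Irf8, Ets1 and Mef2c kept H3K4me1 but had no H3K4me2 in IKDN. The member of Fcrla had H3K4me1 in IKDN alone.

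**Figure D4:**
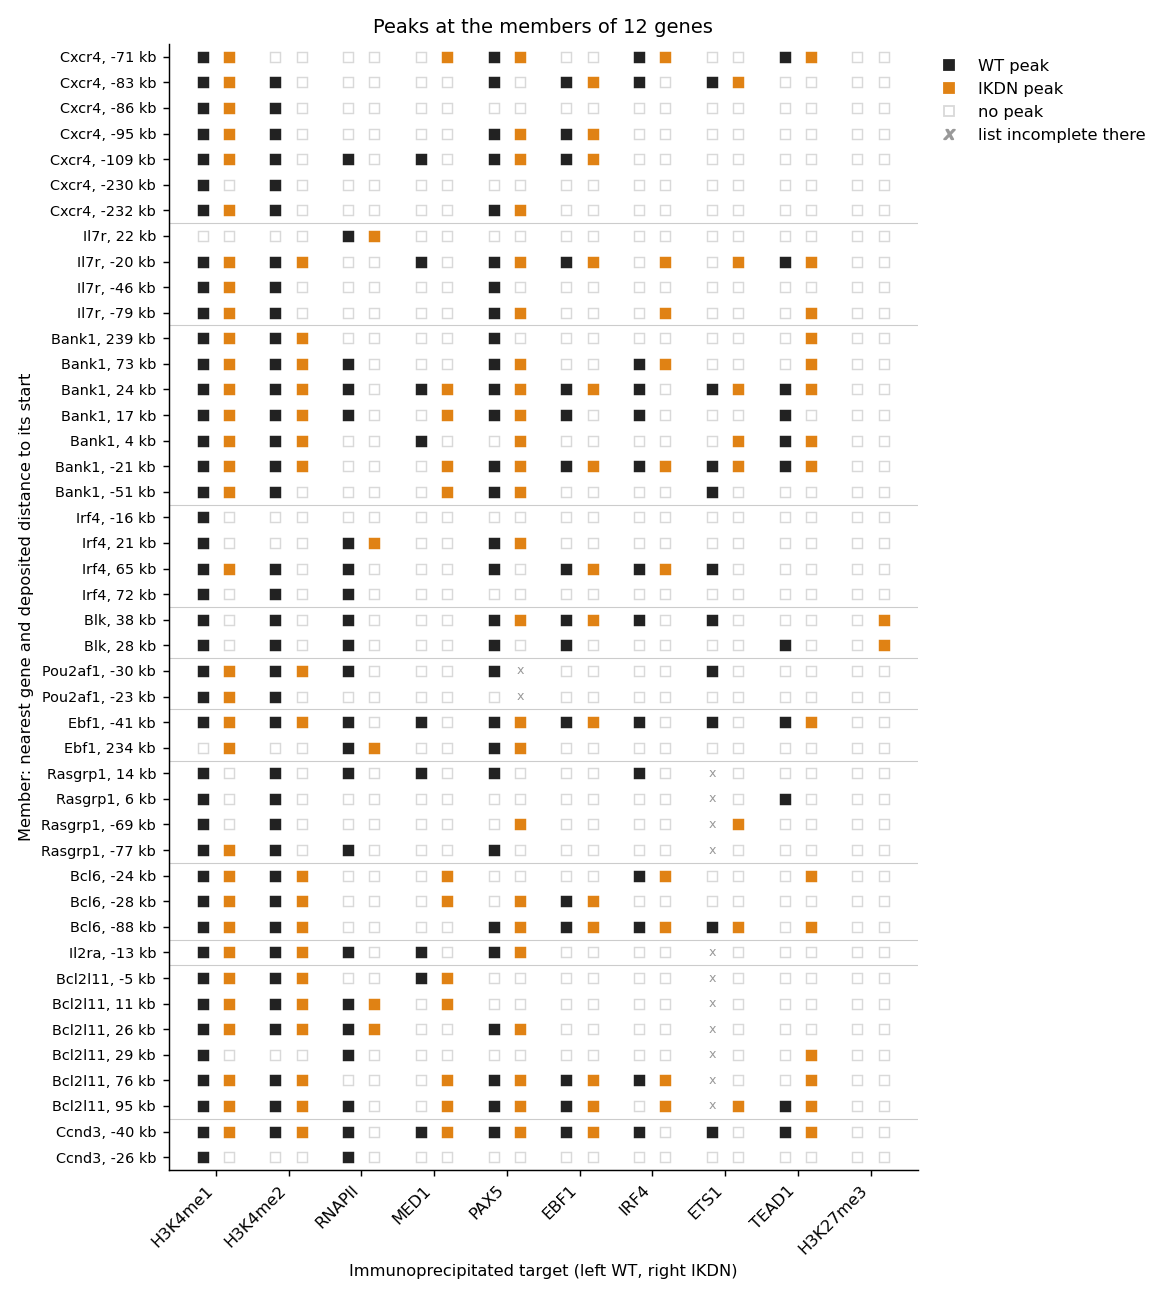
Peaks at each member nearest to 12 genes (rows, with the deposited distance to the gene start in kb) for 10 targets; left squares are WT and right squares IKDN, filled where the list has a peak and crossed where the list is incomplete. Bank1 and Bcl6 rows keep H3K4me1 in IKDN throughout, whereas both Blk rows have H3K27me3 in place of the methyl marks of lysine 4.

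Members near genes of pre-B differentiation numbered 14, at 8 of 32 listed genes (25%, 11.5 to 43.4). Kept Ikaros regions there numbered 78, at 25 of the 32. Members were 15.2% of the list's distal H3K27ac peaks with Ikaros, below the 26.0% over all genes. Rasgrp1, a Ras activator in lymphocytes, had 4, with H3K4me1 at 4 and 1 and H3K4me2 at 4 and 0, and RNAPII over the gene covered 11.16 kb and 2.53 kb. At the 3 members of Bcl6, a repressor that protects pre-B cells, H3K4me1 and H3K4me2 were present in both genotypes at all 3, and RNAPII covered 19.18 kb and 14.68 kb. Il2ra (CD25, a marker of small pre-B cells) had 1 member at chr2:11628053-11631769 (184.3 and 10.6) that kept H3K4me1, H3K4me2 and PAX5 without RNAPII and MED1, and over the gene RNAPII covered 17.43 kb and 2.778 kb and H3K27me3 0 and 10.51 kb. Cd2, Fyn, Pik3ap1, Ptprc and Sh3bp5 had 2, 1, 1, 1 and 1. In the Rag region, the nearest deposited gene of 1 member was Traf6 (chr2:101665255-101666879, 40 and 13.3), with WT H3K4me1, H3K4me2, RNAPII, EBF1, PAX5 and IRF4 and IKDN H3K4me1, H3K4me2, PAX5, E2A and LHX2. It was named after its values were seen, for its place by the recombinase genes.

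Cytokine and homing receptors had members at 7 of 22 genes (31.8%, 13.9 to 54.9) and kept Ikaros regions at 16. Members were 30.9% of the list's distal H3K27ac peaks with Ikaros, against 26.0% over all genes. Cxcr4, the receptor that holds progenitors to stroma, had 7, all 70.98 to 231.8 kb upstream, with H3K4me1 at 7 and 6, PAX5 at 5 and 4, EBF1 at 3 and 3, but H3K4me2 at 6 and 0. Il7r, the interleukin-7 receptor chain that carries early B-cell growth signals, had 4, with H3K4me1 at 3 and 3 and H3K4me2 at 3 and 1, and RNAPII over the gene covered 33.86 kb and 32.77 kb. Kit, the stem cell factor receptor, had 1 at chr5:75729778-75731598 (63.4 and 10.6), with WT H3K4me1, H3K4me2, EBF1 and PAX5 and no peak in IKDN. RNAPII over Kit covered 36.91 kb and 4.952 kb. Ccr7, Ccr9 and Csf2rb had 1 each and Ifngr1 had 2.

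Cell cycle and survival genes had members at 8 of 24 (33.3%, 15.6 to 55.3) and kept Ikaros regions at 16. Members were 26.7% of the list's distal H3K27ac peaks with Ikaros, close to the 26.0% over all genes. Bcl2l11, which encodes the death-inducing protein BIM, had 6 beside 8 kept Ikaros regions. H3K4me1 was at 6 and 5 of them and H3K4me2 at 5 and 5, and RNAPII over the gene covered 33.85 kb and 13.85 kb. Bcl2, its survival counterpart, had 2 in its long intron, with RNAPII at 2 and 0, and 18.8 kb and 8.467 kb of the gene covered. Mycn, Cdkn2a, Pim1 and Btg1 had 1 each and Pim2 had 2. RNAPII over Mycn covered 10.08 kb and 1.313 kb and H3K27me3 0 and 13.02 kb.

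The other lists held 0 to 7 members each. Integrin and focal adhesion genes had them at 1 of 26 (3.85%, 0.0973 to 19.6), namely Tns3 with 2, while that list had 43 kept Ikaros regions. Stromal genes had 0 of 20 (0 to 16.8). T-lineage genes had 3 of 20 (Runx3, Tcf7 and Themis), myeloid genes 2 of 20 (Cybb and Lyz1), stem and progenitor genes 5 of 25 (Myb, Gfi1b, Kit, Id2 and Id3) and housekeeping genes 2 of 20 (Ywhaz and Eif4a2). The housekeeping share was 10% (1.23 to 31.7). Gene length moves with these counts: the 1761 protein-coding genes nearest to a member had a median length of 41.1 kb, against 17.3 kb for all.

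Genes near members more often had less polymerase in IKDN. A gene was counted lower or higher where the length covered by peaks, over the gene and 10 kb on each side, differed by at least 1000 bp and 1.5-fold. RNAPII was lower at 36.7% (34.5 to 39.0) of the 1761 genes, against 14.6% of all protein-coding genes, and higher at 11.5%, against 17.4%. The share lower was 33.7% (31.2 to 36.4) with 1 member, 44.0% (38.2 to 49.8) with 2 and 47.8% (39.8 to 55.9) with 3 or more. Genes with 0 members but a kept Ikaros region had 21.5% (20.04 to 23.0). With the bases of the members themselves left out, it was 33.5% against 14.2% of all genes, and among genes of 10 to 50 kb 29.8% against 14.5%. H3K4me1 was lower at 35.7% (33.5 to 38.0) against 14%, and H3K4me3 at 15.6% (13.9 to 17.3) against 5.64%. Higher calls were fewer, at 7.55% against 13% for H3K4me1 and 1.19% against 2.2% for H3K4me3. H3K36me3, a mark of elongation, was lower at 7.38% (6.20 to 8.70) against 2.42%, yet higher at 18.1% against 14.9%. H3K27me3 was lower at 19.1% against 20.8% and higher at 18.1% (16.3 to 19.9) against 15.2%, both close to the background, though the latter stood at 31.5% (24.3 to 39.3) for genes with 3 or more members and 7.41% for those with kept Ikaros regions alone. Peak lists carry no RNA level, and no expression was analysed here.

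**Figure D5:**
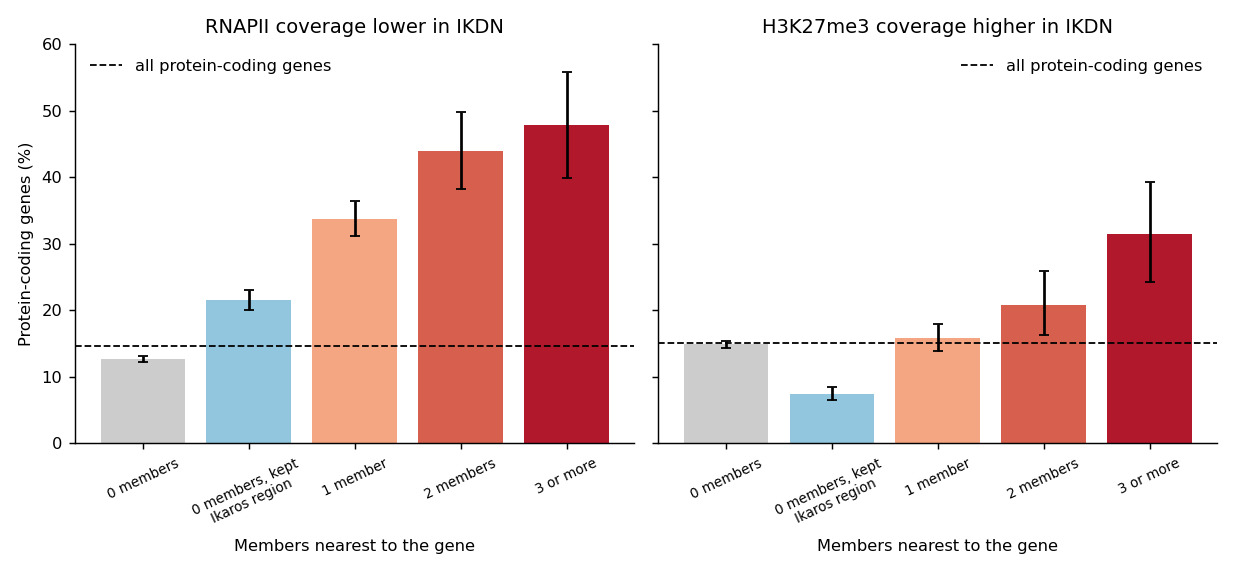
Percent of protein-coding genes with lower RNAPII coverage (left) and higher H3K27me3 coverage (right) in IKDN, by the number of members nearest to the gene; bars are 95% intervals of the count and the dashed line is all protein-coding genes. The RNAPII bars stand at 33.7, 44.0 and 47.8% for 1, 2 and 3 or more members, and the dashed lines at 14.6% and 15.2%.

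Most members did not lie in super-enhancers, the clusters of acetylated peaks with the highest summed scores. Distal WT peaks within 12.5 kb were joined into 12259 domains, of which 725 ranked as super-enhancers. These took in 11.3% (10.2 to 12.5) of members and 22.9% (22.0 to 23.8) of kept Ikaros regions. They also took in 18.6% (17.65 to 19.5) of lost regions without Ikaros and 17.25% (16.2 to 18.4) of kept regions without Ikaros. Most regions of every class thus lay outside them, and members had the lowest share inside. At least 1 member was in 216 of the 725, but 14 had no kept peak at all. Among these 14 were a Tra/Trd domain of 39.65 kb with 6 peaks, rank 101 by summed score, one by Zkscan16 (33 kb, 4 peaks, rank 340), one by Grap2, which encodes a lymphoid adaptor (46.76 kb, 6 peaks, rank 464), and 3 in Igk, the longest of 79.29 kb with 13 peaks of which 10 were members. By domain, 42.2% of members stood alone, 33.7% shared a domain with a kept peak and 24.1% lay in a domain of several peaks that were all absent from the IKDN list.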

How the data were processed

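Chromatin immunoprecipitation libraries of WT and IKDN pre-B cells were read from annotated peak lists that the authors deposited, 1 per library. Per the submitters' processing notes, bcl2fastq 1.8.3, BWA, STAR and HOMER were used and mm10 and mm9 are named, without roles; caller settings and filters are not given in the sources used here. The deposited peak score is the authors' own, per the file headers, with no stated unit. Positions were taken as mm10, since 99.2% of the nearest starts in the lists fell within 1000 bp of the same gene in RefSeq GRCm38. Intervals included both ends, and peaks overlapped if they shared 1 bp. Lists were read only on chromosomes complete in them. Shares have exact Clopper-Pearson intervals of 95%, and no test was made. The overlap and coverage code was tested on simulated data. Named genes were those with most members, those of the 10 highest Ikaros scores, listed genes nearest to a member and the 5 members with most WT and no IKDN factors; any others, and the sequences, were picked after their values were seen. Members and gene lists were chosen with earlier results of these data known. Python 3.11.15, pandas 2.3.3, NumPy 2.4.6 and SciPy 1.17.1 were used. Alternatives varied overlap, score, list length, distance, flank, fold and stitching.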

Additional observations from a re-analysis of the deposited data

How the results depend on the processing

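One library per target and genotype limits every comparison, and the peak lists carry no depth, so a peak that is missing cannot be told from one below the caller's threshold. The planned motif counts in 200-bp windows, with 100-bp and 400-bp windows and the top-scored 50% of Ikaros peaks, were not run, for want of a genome. No paired analysis was possible because each group has 1 library and the labels give no replicate numbers. Of 180 alternative values, 86 were labelled the same, 90 moved and 4 changed sign. For shares, the same meant inside the counting interval, and a share difference needed both its WT and IKDN shares inside. Member counts had to stay within 1.5-fold, and the factor number within a set fraction of its main value. Alternatives on receptor loci, gaps of 10000 bp, interval ends, member bases, gene length and 3 factors were chosen after seeing the data. The count of members was 6012 when a kept peak had to share 50% and 854 with the top-scored 50% of lists. The IKDN minus WT difference in percentage points was, for H3K4me1, -35.7 within 1000 bp, -26.9 by peak centre, -48.8 in the top-scored 50%, -38.8 in 1000-bp windows and -19.7 under the 50% overlap rule; in the same order PAX5 gave -25.3, -24.5, -21.7, -24.6 and -12.5, and E2A, without the first, -32.0, -25.7, -29.2 and -23.0. RNAPII gave -25.0 within 1000 bp and -15.4 in the top-scored 50%, and H3K27me3 gave 6.39 and 4.82. MED1 changed sign to 15.2 under the 50% rule and 0.82 outside receptor loci, and IRF4 and ETS1 to 3.24 and 1.46 under the 50% rule; the cause was not tested. Retention in the top-scored 50% was 37.4% for H3K4me1, 13.5% for H3K4me2 (24.6% in lost regions without Ikaros), 15.8% for H3K4me3, 8.08% for MED1, 40.6% for PAX5 and 15.1% for E2A. With equal list lengths it was 51.4% for PAX5, 29.0% for E2A, 25.2% for ETS1, 32.8% for IRF4 and 3.68% for MED1. At members 10000 bp or more from an IKDN H3K27ac peak it was 50.8% for H3K4me1, 10.5% for RNAPII and 55.2% for PAX5, and RNAPII within 1000 bp gave 19.3%. Retention at members was below that of kept Ikaros regions in 65 of 70 alternatives. The mean change in number of factors was -0.69 in the top-scored 50% and -0.45 over EBF1, PAX5 and IRF4 alone. The share of genes with lower RNAPII was 39.6% with a 50-kb flank, 28.3% at 2-fold, 33.5% without member bases and 29.8% for genes of 10 to 50 kb. Super-enhancers stitched at 5000 bp held 5.78% of members.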
